A study of Mus musculus with 435 samples.

Results

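Ehhadh, Cyp4a14, Hadh, Acadvl and Bdh1, genes of fatty acid oxidation and ketone body metabolism, were followed in the livers of mice of the inbred strains C57 and A/J that were fed either high-fat or low-fat food. They were taken by gene symbol, 1 probe each, so that they make up 5 of the 17280 probes of a spotted 2-colour array. All 5 were measured often enough to be tested, among 7643 probes in all. The series holds 435 arrays in 44 groups, namely high-fat C57, low-fat C57, high-fat A/J and low-fat A/J mice at week 0, week 1 and each of weeks 3 to 11. The labels give a diet at week 0 too, and give no age, sex, diet composition or statement of which arrays share a mouse. On every array liver RNA (Cy5) was set against 1 pooled reference RNA (Cy3) from C57 tissues, for which the labels give 26% liver, 26% kidney, 13% brown fat, 12% skeletal muscle, 6% lung, 6% hypothalamus, 5% white fat, 4% brain, 2% testes and 1% heart. A level is therefore the log2 of liver over this pool, centred on each array's median over the tested probes. On 1 array a level of 0 marks the middle of these probes.

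Fatty acids are broken down in 3 compartments of the liver cell. Mitochondria shorten most fatty acids by beta-oxidation and turn the product into ketone bodies, which other tissues burn during fasting. Peroxisomes shorten very long chains and dicarboxylic acids, and microsomal cytochromes of the Cyp4a family make such dicarboxylic acids by omega-hydroxylation. Many of these genes are switched on by the fatty acid receptor PPARalpha, of which Ehhadh and Cyp4a14 are classical targets in rodent liver.

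Of the 433 distinct arrays, 350 in 36 groups over 9 weeks entered the comparisons over time. Week 8 was left out, because 28 of its 40 arrays were unlike the rest, with correlations with the median array below 0.15, as were 4 arrays of other weeks. Arrays had 194 to 14920 measured probes, with a median of 5007 at week 0 and 11161.5 later. The tissue label was checked on hepatocyte genes, of which 14 of 15 tested lay above 0, with a median level of 0.99. The highest were the lipoprotein genes Apoa1 (1.74) and Apoe (1.39) and the thyroxine carrier gene Ttr (1.39), while all 7 tested genes of skeletal muscle and heart lay below 0. In whole liver, fewer cells of a type and less RNA per cell cannot be told apart.

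Averaged over the 36 groups, Bdh1 had the highest level of the members at 0.12 and Cyp4a14 the lowest at -0.56. Ehhadh stood at 0.0084, Acadvl at -0.16 and Hadh at -0.27. Among the averaged levels of all tested probes 0 was not the middle. Bdh1 ranked at the 70.7 percentile, Ehhadh at 60.4, Acadvl at 44.5, Hadh at 34.7 and Cyp4a14 at 14.8. The levels are ratios to a pool that itself contains liver and kidney, so the order is not one of transcript abundance. Arrays of 1 group spread widely for Hadh (SD 0.93) and Cyp4a14 (SD 0.93), against a median SD of 0.51 over all tested probes. The spread of Ehhadh (SD 0.49), Bdh1 (SD 0.54) and Acadvl (SD 0.63) lay nearer to it. Ehhadh was measured on 318 of the 350 arrays, Acadvl on 309, Hadh on 289, Bdh1 on 274 and Cyp4a14 on 271.

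**Figure D1:**
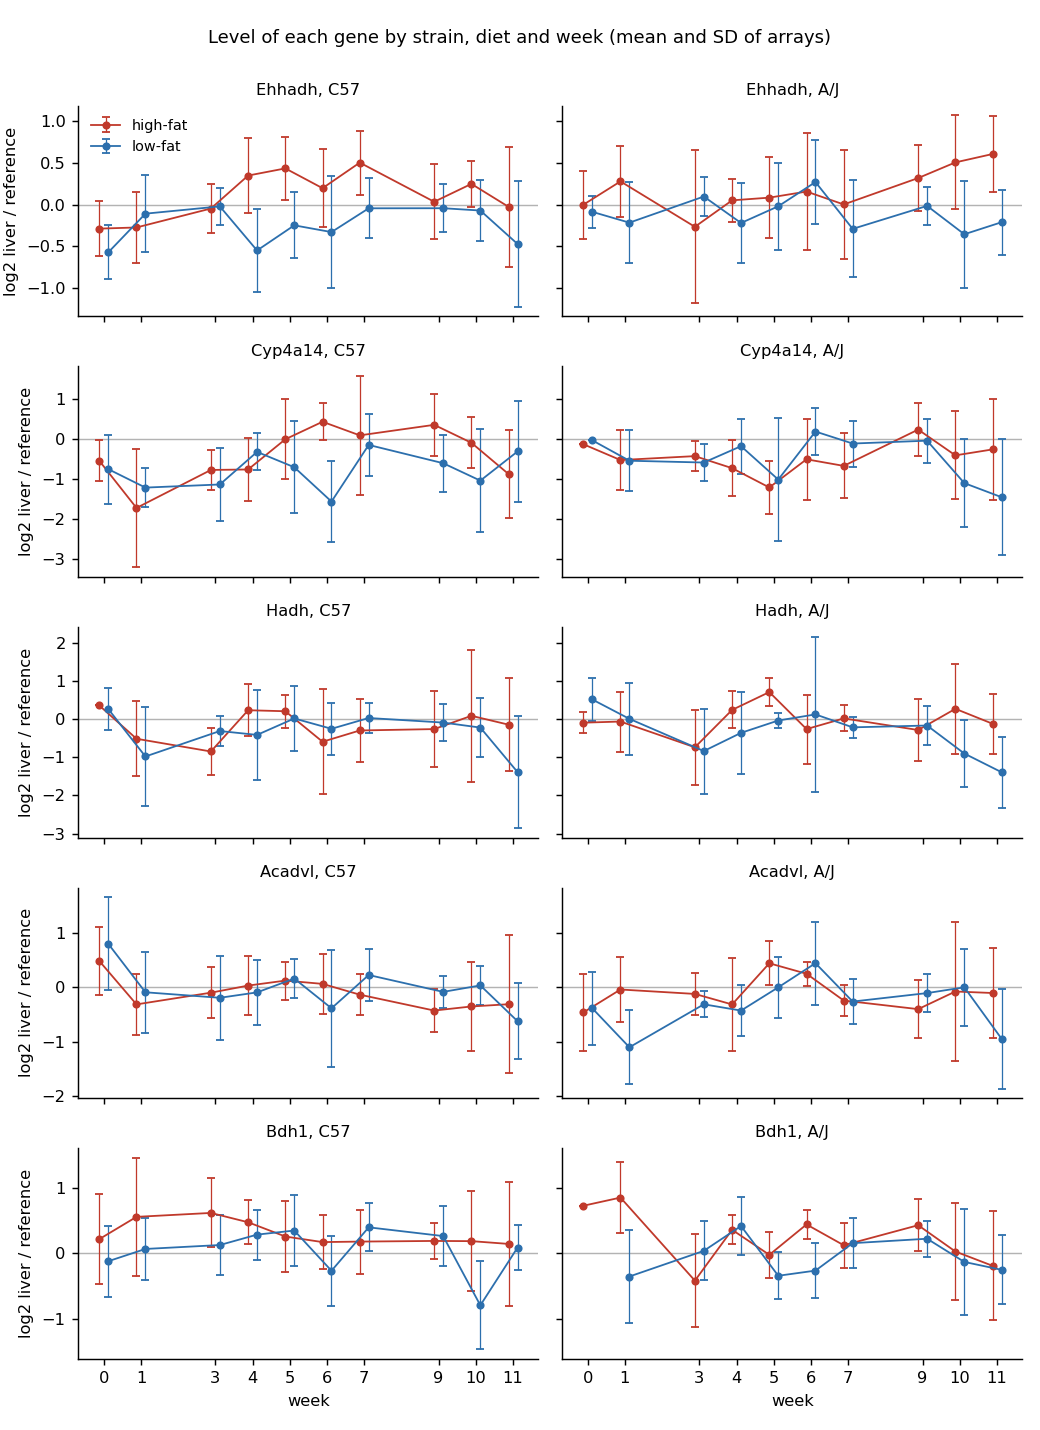
Mean log2 liver over reference of each gene against week, for C57 (left) and A/J (right), in high-fat (red) and low-fat (blue) groups; bars are the SD of arrays, and a point with no visible bar at week 0 rests on 1 array. Week 8 is left out. The error bars of the diets overlap at most weeks, and the levels of Cyp4a14 and Hadh have the widest bars.

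The first question was whether diet moved these genes over the 9 weeks, with the week as the unit of replication. In C57 none of the 5 members passed the threshold of 0.05 on the limma adjusted p, where 0.196% of all probes did, and in A/J none passed, where 0.0262% of all probes did. The difference had a positive sign, higher on the high-fat diet, for 4 of 5 members in C57 and 5 of 5 in A/J. The median difference of the members was 0.25 in C57 and 0.24 in A/J, beside medians of -0.00021 and -0.0070 over all probes. The members were picked with earlier results of these arrays known, so their common sign is a description.

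Ehhadh, which encodes the peroxisomal enzyme joining hydratase and dehydrogenase steps of beta-oxidation, had the smallest p of the members in C57. Its weekly means in C57 ran from -0.27 to 0.50 with a median of 0.20 on the high-fat diet, and from -0.55 to -0.022 with a median of -0.11 on the low-fat diet. The ranges overlapped, and the high-fat mean was the higher one in 7 of 9 weeks. The log2 difference was 0.37 ± 0.12 (SE, 9 weeks; 95% interval 0.13 to 0.60), or 1.29-fold, with a limma adjusted p of 0.331 and an unadjusted p of 0.00341. The test did pass when single arrays in place of weekly means were the replicates, at 0.36 with a limma adjusted p of 0.00373, which counts arrays of 1 week as independent.

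In A/J the weekly means of Ehhadh ran from -0.27 to 0.61 with a median of 0.16 on the high-fat diet, and from -0.36 to 0.27 with a median of -0.21 on the low-fat diet. The high-fat mean was again higher in 7 of 9 weeks, with overlapping ranges. The log2 difference was 0.30 ± 0.12 (95% interval 0.064 to 0.54; limma adjusted p = 0.820). The diet difference in C57 minus that in A/J was 0.067 (95% interval -0.27 to 0.40; limma adjusted p = 1.00), and 0% of probes were called in that comparison. There 204 of 7643 had an unadjusted p under 0.05, a share below the 0.05 that no difference at all would give.

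A comparison averaged over both strains was added after these values were seen. There the log2 difference of Ehhadh was 0.33 ± 0.08 (95% interval 0.17 to 0.50), with a limma adjusted p of 0.0592 and an unadjusted p of 0.000302, where 0.419% of all probes were called. It did not pass the threshold. With each week left out in turn it passed in 1 of 9 fits, without week 3 (0.40, limma adjusted p = 0.0191), the week of the most negative difference in A/J. In the other 8 fits it was 0.30 to 0.35, with limma adjusted p from 0.0625 to 0.214. Over that average Hadh had 0.28 (limma adjusted p = 0.483), Bdh1 0.24 (0.408), Cyp4a14 0.22 (0.750) and Acadvl 0.096 (0.827).

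The weeks with the largest differences of Ehhadh were not the same ones in both strains, though no single week passed the threshold. In C57 its weekly differences were -0.17, -0.026, 0.90, 0.68, 0.53, 0.55, 0.077, 0.32 and 0.45 at weeks 1, 3, 4, 5, 6, 7, 9, 10 and 11. In A/J they were 0.49, -0.36, 0.27, 0.10, -0.11, 0.29, 0.33, 0.86 and 0.82 at the same weeks. The largest gaps thus fell at weeks 4 to 7 in C57 and at weeks 10 and 11 in A/J, which is a description, since this contrast of timing was not tested between the strains.

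**Figure D2:**
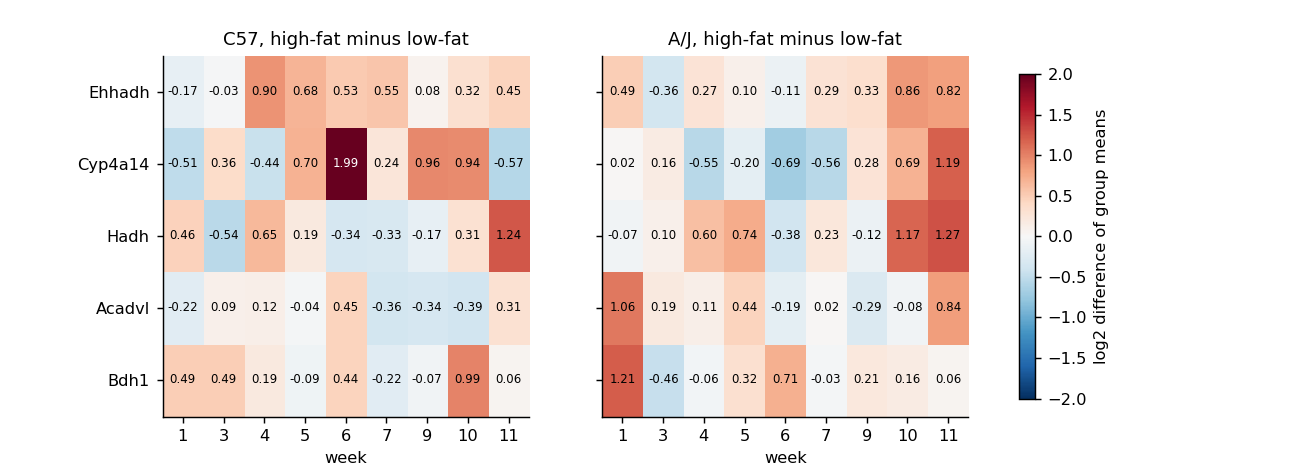
Difference of group means in log2, high-fat minus low-fat, for each gene (rows) and week (columns), in C57 (left) and A/J (right); red is higher on the high-fat diet. Ehhadh is red in 7 of 9 weeks in each strain, and the largest cell is Cyp4a14 in C57 at week 6 (1.99).

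Single arrays show the size of the overlap. At week 4 Ehhadh in C57 ran from -0.26 to 1.28 with a median of 0.28 on 10 high-fat arrays, and from -1.21 to 0.30 with a median of -0.60 on 8 low-fat arrays. At week 11 in A/J it ran from -0.037 to 1.17 with a median of 0.69 on 9 high-fat arrays, and from -1.14 to 0.096 with a median of -0.12 on 8 low-fat arrays. The high-fat medians were the higher ones and the ranges overlapped. In a limma test of single arrays within 1 strain and week the log2 difference was 0.91 ± 0.23 (SE; adjusted p = 0.506) at week 4 in C57 and 0.84 ± 0.23 (adjusted p = 0.999) at week 11 in A/J.

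Over all members, strains and weeks with enough arrays there were 74 such comparisons, and 0 passed the limma adjusted threshold. Of all probes, 0.0093% passed at week 5, 0.176% at week 6, 0.00852% at week 9 and 0.0125% at week 10 in C57, and 1.58% at week 4 and 0.0571% at week 6 in A/J, with 0% at each other strain and week. In 11 of the 74 the unadjusted p was under 0.05, 7 of them for Ehhadh, and 10 of the 11 were higher on the high-fat diet. The share of all probes at that unadjusted threshold was not counted for single weeks. The members were also picked with earlier results known, so this count is a description. At week 0 the level of Ehhadh was -0.29 ± 0.33 (SD, n = 5) in high-fat C57, -0.57 ± 0.32 (n = 6) in low-fat C57, -0.0020 ± 0.41 (n = 7) in high-fat A/J and -0.087 ± 0.19 (n = 8) in low-fat A/J. The gap between the diets at week 0 was within 1 SD of arrays in both strains, with the high-fat mean the higher one in each. That is a wide yardstick, since the 9-week difference of 0.37 in C57 also lay within the SD of 0.49 of arrays in a group. Ehhadh was not tested in C57 at week 0, so a gap there before the later weeks is not excluded.

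Cyp4a14, the microsomal omega-hydroxylase, had the largest diet difference of the members in C57 and the widest interval. Its weekly means in C57 ran from -1.73 to 0.42 with a median of -0.10 on the high-fat diet, and from -1.57 to -0.16 with a median of -0.71 on the low-fat diet. The log2 difference was 0.41 ± 0.22 (95% interval -0.046 to 0.86; limma adjusted p = 0.843), with 6 of 9 weekly differences positive. Without week 6 it was 0.21.

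At week 6 the measured arrays of the diets did not overlap for Cyp4a14 in C57. The gene had values on 6 of the 10 high-fat arrays and on 5 of the low-fat arrays kept. How many of all probes did not overlap at that week was not counted, so the lack of overlap is a description. The 6 high-fat arrays ran from 0.025 to 1.07 with a median of 0.22, and the 5 low-fat arrays from -2.85 to -0.19 with a median of -1.38. The difference of means was 1.99, the largest weekly value of any member, and it was picked for its size and not tested, since the gene did not meet the probe filter within that week. In A/J the gene had a log2 difference of 0.038 ± 0.22 over the 9 weeks (95% interval -0.42 to 0.49; limma adjusted p = 0.997), from weekly means of -1.22 to 0.23 on the high-fat diet and -1.46 to 0.18 on the low-fat diet. The diet difference in C57 minus that in A/J was 0.37 (95% interval -0.27 to 1.02; limma adjusted p = 1.00).

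Hadh encodes the mitochondrial dehydrogenase of the third step of beta-oxidation. In A/J its weekly means ran from -0.74 to 0.71 with a median of -0.066 on the high-fat diet, and from -1.39 to 0.12 with a median of -0.22 on the low-fat diet. Its log2 difference was 0.39 ± 0.16 (95% interval 0.060 to 0.73; limma adjusted p = 0.832), with the high-fat mean higher in 6 of 9 weeks. In C57 it was 0.16 ± 0.16 (95% interval -0.17 to 0.50; limma adjusted p = 0.968), with 5 of 9 weeks higher. The ranges overlapped in both strains.

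Week 11 gave the largest diet gap of Hadh in each strain. In C57 the arrays at week 11 ran from -2.29 to 1.27 with a median of 0.25 on the high-fat diet (n = 8), and from -3.83 to -0.015 with a median of -1.15 on the low-fat diet (n = 7). In A/J they ran from -1.14 to 0.96 with a median of -0.28 on the high-fat diet (n = 8), and on the low-fat diet the 5 arrays ran from -2.62 to -0.36 with a median of -1.14. Low-fat arrays were the lower ones in both strains, with overlap.

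Acadvl encodes the very-long-chain acyl-CoA dehydrogenase, which takes the first step of mitochondrial beta-oxidation. In C57 its weekly means ran from -0.43 to 0.12 on the high-fat diet and from -0.62 to 0.23 on the low-fat diet, and the log2 difference was -0.041 ± 0.12 (95% interval -0.29 to 0.21; limma adjusted p = 0.997). In A/J they ran from -0.40 to 0.44 on the high-fat diet and from -1.10 to 0.44 on the low-fat diet, with a difference of 0.23 ± 0.12 (95% interval -0.020 to 0.49; limma adjusted p = 0.942). Acadvl was the member with the most nearly equal levels on both diets in C57.

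Bdh1, whose mitochondrial enzyme interconverts the ketone bodies acetoacetate and beta-hydroxybutyrate, had similar differences in both strains. In C57 its weekly means ran from 0.15 to 0.62 with a median of 0.19 on the high-fat diet, and from -0.80 to 0.40 with a median of 0.13 on the low-fat diet. The log2 difference was 0.25 ± 0.13 in C57 (95% interval -0.020 to 0.52; limma adjusted p = 0.823) and 0.24 ± 0.13 in A/J (95% interval -0.036 to 0.51; limma adjusted p = 0.942). The high-fat mean was higher in 6 of 9 weeks in each strain. All 9 high-fat means in C57 lay above 0, and the low-fat range enclosed most of them. Deviations of Bdh1 from its group means also fell as an array had more measured probes (Pearson r = -0.187, permutation adjusted p = 0.0196; Spearman rho = -0.187, permutation adjusted p = 0.0144; n = 274; 5 genes tested), and r was -0.172 without the 2 farthest arrays. The part of this in the diet values was not tested.

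**Figure D3:**
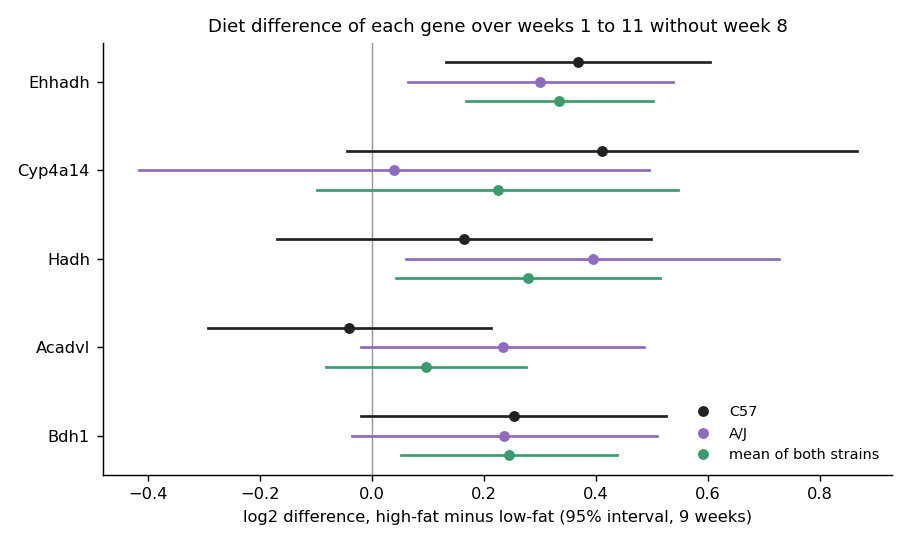
Log2 difference between high-fat and low-fat diet for each gene, with its 95% interval from limma on weekly means, in C57 (black), A/J (purple) and the mean of both strains (green, added after the values were seen). The intervals of Ehhadh lie above 0 in all 3 estimates, yet no estimate in the plot has an adjusted p below 0.05.

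Between the strains on 1 diet, no member passed the limma test, where 3.94% of probes were called among high-fat groups and 2.39% among low-fat groups. On the high-fat diet C57 minus A/J was 0.13 for Cyp4a14, 0.13 for Bdh1, -0.036 for Ehhadh, -0.090 for Acadvl and -0.21 for Hadh. Hadh was lower in C57 in 8 of 9 weeks there, with a 95% interval of -0.54 to 0.12. On the low-fat diet C57 minus A/J was 0.18 for Acadvl, 0.11 for Bdh1, 0.018 for Hadh, -0.10 for Ehhadh and -0.24 for Cyp4a14.

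Levels were then compared between phases of the diet period within each strain and diet. Cyp4a14 rose in high-fat C57 mice, with a mean of 0.16 ± 0.23 (SD of 3 weekly means) at weeks 5 to 7, against -1.09 ± 0.55 at weeks 1, 3 and 4. The log2 difference was 1.26 ± 0.37 (SE; 95% interval 0.50 to 2.01), or 2.39-fold, with a limma adjusted p of 0.0189. In this comparison 17.7% of all probes were called and 10.4% were called higher, so a call here is common. In low-fat C57 mice Cyp4a14 had -0.81 ± 0.71 at weeks 5 to 7, against -0.90 ± 0.49 at weeks 1, 3 and 4, a difference of 0.085 (limma adjusted p = 0.915).

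The call of Cyp4a14 did not hold without week 1, when the difference was 0.94 with a limma adjusted p of 0.174, or with group medians (0.98, limma adjusted p = 0.0506). At week 1 its 7 high-fat C57 arrays ran from -4.59 to -0.12 with a median of -1.29. Whether the change over time differed by diet was tested after the values were seen. The difference of changes in C57 was 1.17 ± 0.52 (limma unadjusted p = 0.0323, adjusted p = 1.00), with 0% of probes called. That fit had no term for week, and 77 of 7643 probes had an unadjusted p under 0.05 in this comparison. The share is below the 0.05 that no difference at all would give, so the lack of calls decides little. At weeks 9 to 11 the level in high-fat C57 was -0.21 ± 0.62, and the difference from weeks 1, 3 and 4 was 0.88 (limma adjusted p = 0.117).

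Acadvl rose in low-fat A/J mice, with a mean of 0.062 ± 0.36 at weeks 5 to 7, against -0.61 ± 0.43 at weeks 1, 3 and 4. The difference was 0.67 ± 0.23 (SE; limma adjusted p = 0.0380), in a comparison where 21.6% of probes were called and 10.3% were called higher. Without week 1 it was 0.43 (limma adjusted p = 0.281) and without week 6 it was 0.48 (0.223), and it was not called without week 4 (0.77, limma adjusted p = 0.0552) or week 5 (0.70, 0.0747) either. The call was also lost with no centring (0.50, limma adjusted p = 0.127), quantile normalization (0.45, 0.0837), group medians (0.75, 0.0560) and a looser probe filter (0.63, 0.0581). In high-fat A/J mice Acadvl had 0.15 ± 0.35 at weeks 5 to 7, against -0.16 ± 0.14 at weeks 1, 3 and 4. That difference was 0.31 (limma adjusted p = 0.34). The difference of changes, high-fat minus low-fat, in A/J was -0.37 ± 0.33 (limma unadjusted p = 0.276).

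No other member passed in the 8 comparisons between phases. The share of all probes called at weeks 5 to 7 minus weeks 1, 3 and 4 was also 4.64% in low-fat C57 and 24.1% in high-fat A/J. At weeks 9 to 11 minus weeks 1, 3 and 4 it was 12% in high-fat C57, 3.24% in low-fat C57, 15.7% in high-fat A/J and 6.11% in low-fat A/J. A phase and anything else that set its weeks apart, such as a batch of arrays, cannot be told apart. Those with the next smallest p were Ehhadh in high-fat A/J at weeks 9 to 11 minus weeks 1, 3 and 4 (0.46 ± 0.18, limma adjusted p = 0.0807), and Cyp4a14 in high-fat C57 between the same phases, given above. The mean of Ehhadh in high-fat A/J was 0.48 ± 0.15 (SD of 3 weekly means) at weeks 9 to 11, against 0.021 ± 0.27 at weeks 1, 3 and 4. The other 3 comparisons of that gene to weeks 9 to 11 gave 0.076 in high-fat C57, 0.031 in low-fat C57 and -0.081 in low-fat A/J. The difference of these changes between diets was 0.54 in A/J (95% interval 0.017 to 1.06, limma unadjusted p = 0.0434) and 0.045 in C57, with 0% of probes called. To weeks 5 to 7 Ehhadh changed by 0.37 in high-fat C57 (limma adjusted p = 0.153) and 0.019 in low-fat C57. In A/J it changed by 0.060 on the high-fat diet and 0.10 on the low-fat diet.

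Correlation among the members was measured across arrays, after the mean of each strain, diet and week had been taken away, so that none of it comes from differences between groups. Of 10 pairs 1 passed a permutation test within groups, namely Ehhadh with Hadh, with Pearson r = 0.301 (permutation adjusted p = 0.0003) and Spearman rho = 0.264 (permutation adjusted p = 0.0004) over 275 arrays. The r was positive in 4 of 4 combinations of strain and diet, from 0.21 in high-fat A/J to 0.40 in high-fat C57, and in 8 of 9 weeks, from -0.0033 at week 9 to 0.61 at week 11. Without the 2 arrays farthest from the median of Ehhadh it was 0.298.

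The pair depended on how arrays were scaled and counted. After quantile normalization r was 0.151 (permutation adjusted p = 0.200), and with consecutive arrays averaged, an alternative added after the data were seen, it was 0.196 (permutation adjusted p = 0.342). Set against all other tested probes, the correlation with Hadh ranked at the 99.1 percentile among the correlations of Ehhadh, and that with Ehhadh at the 94.7 percentile among those of Hadh. The points share the array, its hybridisation and its centring.

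The other 9 pairs did not pass on these deviations. Cyp4a14 with Bdh1 had r = 0.193 (permutation adjusted p = 0.0666; rho = 0.141, permutation adjusted p = 0.149; n = 240), and r was 0.165 without the 2 farthest arrays. The remaining 8 pairs ran from -0.0869 for Cyp4a14 with Acadvl to 0.106 for Ehhadh with Cyp4a14. As a description over the 36 group means, r was 0.48 for Ehhadh with Hadh, 0.43 for Hadh with Acadvl and 0.41 for Ehhadh with Cyp4a14. Groups at 1 week may share a batch, so these values carry no p. Over the levels themselves, with group differences left in, r was 0.345 for Ehhadh with Hadh (permutation adjusted p = 0.0001). It was 0.209 for Cyp4a14 with Bdh1 (0.0055) and 0.178 for Ehhadh with Cyp4a14 (0.0129), and no other r passed. By Spearman rho Ehhadh with Acadvl passed (0.165, permutation adjusted p = 0.0171) and Cyp4a14 with Bdh1 did not (0.066). Arrays were there permuted across groups, so these p-values also reflect group differences.

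**Figure D4:**
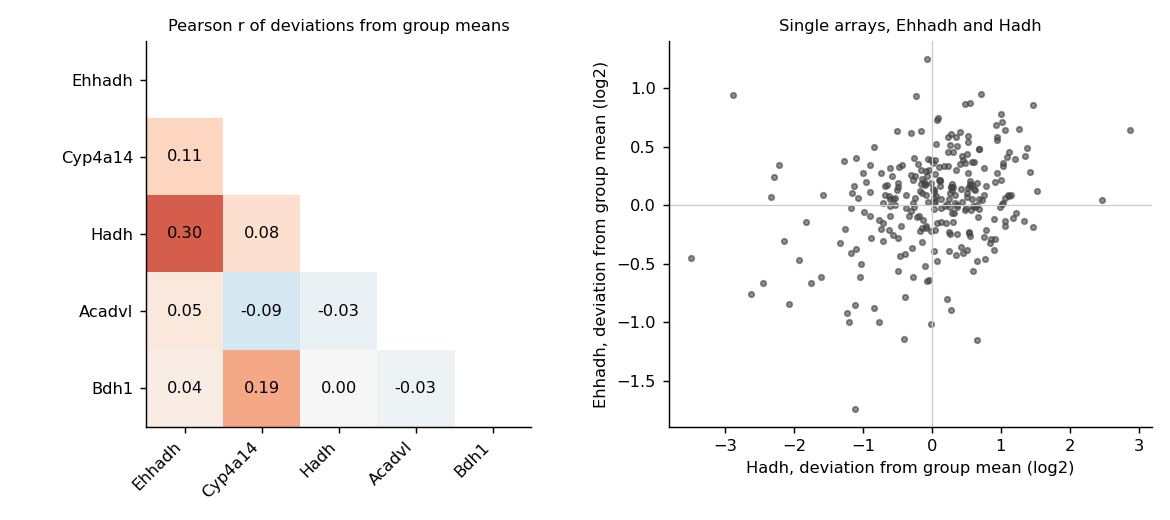
Left, Pearson r of each pair of genes over single arrays, from deviations from the mean of the array's strain, diet and week group. Right, those deviations for Ehhadh (vertical axis, log2) and Hadh (horizontal axis, log2), 1 point per array; the cloud of 275 arrays is wide and tilts upward (r = 0.301).

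The start regions of the pair that passed within groups, and of Acadvl, the member with a receptor half-site, are shown from RefSeq (assembly GRCm38.p6). They run from 250 bases before to 50 after the gene's start, 5′ to 3′ on the gene's strand. Capitals mark AGGTCA, the half-site bound by nuclear receptors such as PPARalpha with its partner RXR. RefSeq windows were at hand for 4 of the 5 members (5 windows), and Cyp4a14 is named only. The windows of Ehhadh (chr16:21787785-21788084, minus strand), Hadh (chr3:131272052-131272351, minus strand) and Acadvl (chr11:70015379-70015678, minus strand) read:
Ehhadh: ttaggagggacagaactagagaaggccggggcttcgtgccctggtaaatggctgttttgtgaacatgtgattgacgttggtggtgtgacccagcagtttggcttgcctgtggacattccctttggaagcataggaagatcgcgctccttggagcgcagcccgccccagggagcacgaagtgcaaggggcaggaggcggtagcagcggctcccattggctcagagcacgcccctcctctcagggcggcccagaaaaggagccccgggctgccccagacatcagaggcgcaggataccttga
Hadh: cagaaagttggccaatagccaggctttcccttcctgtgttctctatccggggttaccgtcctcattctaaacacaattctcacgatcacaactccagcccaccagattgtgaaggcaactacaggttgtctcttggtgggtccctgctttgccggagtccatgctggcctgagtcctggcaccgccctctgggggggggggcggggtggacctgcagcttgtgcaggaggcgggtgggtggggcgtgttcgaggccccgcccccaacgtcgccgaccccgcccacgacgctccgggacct
Acadvl: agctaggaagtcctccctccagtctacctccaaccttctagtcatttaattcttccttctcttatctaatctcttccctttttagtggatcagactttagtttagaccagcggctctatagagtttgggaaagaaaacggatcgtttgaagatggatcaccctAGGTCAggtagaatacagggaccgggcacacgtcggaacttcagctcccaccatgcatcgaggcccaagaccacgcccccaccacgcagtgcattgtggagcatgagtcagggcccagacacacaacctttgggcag

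Of 4 motifs searched on both strands, AGGTCA was found once, in Acadvl 87 bases before the start on the gene's strand, and 16.3% of all 32851 windows of that length hold it. A direct repeat of the half-site with any 1 base between its copies, which contains the single half-site, was in 0 of the 5 windows and in 0.0396% of all windows. CCAAT occurred once each in Ehhadh and Hadh, against 37.4% of all windows, and GGGCGG occurred in Ehhadh (2 matches), Hadh (4) and the second Bdh1 window (1), against 35.7% of all windows. These are matches of letters and show no binding.

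The rest of the pathway was read from 7 gene lists, of whose genes 91 are on the array and 52 were tested, 47 of them not members. For diet, 0 of the 47 passed the limma test in either strain. Their differences were positive for 26 of 47 in C57 (median 0.018) and for 21 of 47 in A/J (median -0.015), beside 3810 and 3597 of 7643 probes. Ppara, the gene of the receptor itself, had the largest of these differences in both strains, at 0.51 ± 0.18 in C57 (limma adjusted p = 0.484) and 0.44 ± 0.18 in A/J (limma adjusted p = 0.832).

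Counts by list below include the members. Among genes of fatty acid activation and the carnitine shuttle, 4 of 7 were positive in C57, led by the bile acid and fatty acid CoA ligase gene Slc27a5 (0.20), with Slc27a4 at -0.17, and 3 of 7 in A/J, led by Slc27a2 (0.24) and the carnitine carrier gene Slc25a20 (0.16). Among genes of mitochondrial beta-oxidation, 9 of 13 were positive in C57, where the thiolase gene Acaa2 had 0.22 and the dehydrogenase gene Hsd17b10 0.18. In A/J 5 of 13 were, with the electron transfer flavoprotein gene Etfb at -0.15 and the acyl-CoA dehydrogenase gene Acadl at 0.14.

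Among genes of peroxisomal oxidation, 6 of 12 were positive in C57 and 7 of 12 in A/J. The thiolase gene Acaa1a had 0.20 in C57 and 0.15 in A/J, the racemase gene Amacr 0.23 in C57 and the lyase gene Hacl1 -0.18 in A/J. Among the microsomal genes 4 of 7 were positive in C57 and 5 of 7 in A/J, with Cyp4v3 at 0.12 in C57 and 0.28 in A/J, Cyp4f13 at 0.11 in C57 and Cyp4f14 at 0.12 in A/J. The ketone list had 1 tested gene beside Bdh1, the dehydrogenase gene Bdh2, at -0.042 in C57 and -0.017 in A/J.

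Among 4 tested regulators the receptor partner gene Rxra had -0.16 in C57 and the hormone gene Fgf21 -0.12 in A/J. Of 7 other PPARalpha targets 4 were positive in C57 and 3 in A/J, with the thioesterase gene Acot1 at 0.090 and the uncoupling protein gene Ucp3 at -0.072 in C57. In A/J the fatty acid transporter gene Cd36 had 0.20 and the desaturase gene Fads1 -0.26. Between the strains on the high-fat diet 2 of the 47 were called (4.26%, near the 3.94% of all probes), Hsd17b10 higher in C57 (0.40 ± 0.11, limma adjusted p = 0.0309) and the carnitine transporter gene Slc22a5 lower in C57 (-0.33 ± 0.09, limma adjusted p = 0.0358).

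**Figure D5:**
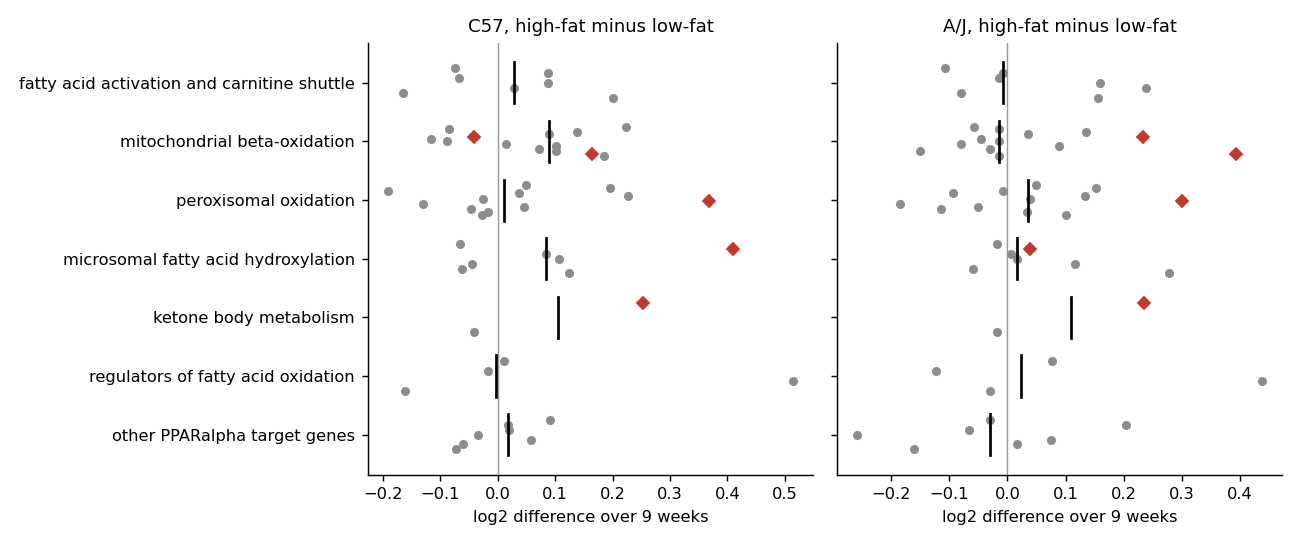
Log2 difference between high-fat and low-fat diet over 9 weeks for every tested gene of 7 pathway lists, in C57 (left) and A/J (right); red diamonds are the 5 members, grey points the other 47 genes and black bars the median of each list. In C57 the Acadvl diamond lies left of 0 and the other 4 right of it, in A/J all 5 lie right of 0, and Ppara is the grey point farthest right in both strains.

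Between phases, some of the 47 passed the limma test, as did many of all probes. At weeks 5 to 7 minus weeks 1, 3 and 4 there were 9 (19.1%) in high-fat C57, where 17.7% of all probes were called, and 3 (6.38%) in low-fat C57, where 4.64% were. There were 16 (34%) in high-fat A/J, where 24.1% of all probes were called, and 11 (23.4%) in low-fat A/J, where 21.6% were. These shares were not tested against those of all probes, and the genes are given as single values. The peroxisomal isomerase gene Ech1, the peroxisomal transporter gene Abcd3 and the mitochondrial hydratase gene Echs1 rose in all 4 of these, by 1.04, 1.09 and 1.04 in high-fat C57. Ppara rose by 1.63 in high-fat C57 (limma adjusted p = 0.00445) and by 1.64 in high-fat A/J (limma adjusted p = 0.00301). In the low-fat groups none of the 4 tested regulators was called, yet the largest rise among them was 1.11 in C57 and 0.98 in A/J. For a change over time that differed by diet, 0 of the 47 were called in either strain, so these rises are not shown to depend on diet. Slc27a5 rose in high-fat C57 (0.56) and in both A/J groups, Cyp4f14 in high-fat C57 (0.72) and high-fat A/J (0.83), and Hsd17b10 in high-fat C57 (0.69). In A/J, Phyh (0.66), Fads1 (0.60) and Creb3l3 (0.37) rose on the high-fat diet and Acox2 (0.86) on the low-fat diet.

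Other genes fell between the same phases. Txnip and Slc27a4 were lower in high-fat C57 (-0.73 and -0.47) and in both A/J groups. In A/J the short-chain dehydrogenase gene Acads was lower on the high-fat diet (-1.33) and on the low-fat diet (-1.03), as was Aldh3a2 (-0.54 and -0.69). Eci1 (-0.70), Cyp4f15 (-0.69) and Cidec (-0.53) were lower in high-fat A/J, and Decr1 (-0.67) and Cpt1b (-0.56) in low-fat A/J. At weeks 9 to 11 minus weeks 1, 3 and 4 there were 9 calls (19.1%) in high-fat C57, 4 (8.51%) in low-fat C57, 9 (19.1%) in high-fat A/J and 5 (10.6%) in low-fat A/J. Over all probes the shares in the same groups were 12%, 3.24%, 15.7% and 6.11%. Acads, Slc27a4 and Txnip were lower in all 4 of these groups, Acads by -1.06 in high-fat C57. Abcd3 was higher in 3 groups and Ech1 and Ppara in both high-fat groups, with Ppara at 1.18 in C57 and 1.23 in A/J. Among the 4 tested regulators the largest rise in the low-fat groups was 0.70 in C57 and 0.60 in A/J, and none was called there. Slc27a5 was higher in high-fat C57 and both A/J groups, and Fads1 (0.68) was higher and Cidec (-0.78) lower in high-fat A/J. Cpt2 (-0.54) and Cyp4f15 (-0.91) were lower in high-fat C57 and Acaa2 (-0.79) in low-fat A/J.

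Marker lists of other cell types were read beside the diet values, and none of their genes was called for diet in either strain. In C57 the median difference was 0.10 over 15 hepatocyte genes (11 positive), 0.064 over 5 macrophage and leukocyte genes (4 positive) and -0.085 over 7 muscle and heart genes (1 positive). In A/J it was -0.039 for hepatocyte genes (5 positive), 0.21 for macrophage and leukocyte genes (3 positive) and -0.12 for muscle and heart genes (0 positive). Their part in the members' values was not tested.

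For each member the 3 genes with the most similar course over the 36 group means were listed. For Ehhadh they were Reep6 (r = 0.648), Cd74 (0.630) and Gsk3b (0.624), and for Cyp4a14 they were Igf2 (0.639), Meox1 (0.636) and 2310043M15Rik (0.629). For Hadh they were Hsp90b1 (0.723), Stk25 (0.710) and Tnk2 (0.694). For Acadvl they were Ubr3 (0.740), Gcnt1 (0.720) and Mobp (0.692). For Bdh1 they were Nr1h4 (0.716), Lypd5 (0.643) and Crabp1 (0.613). They are the highest among probes with 1 symbol, out of 7642 correlations for each member, so a probe without a single symbol may rank higher. No other member was among the 3 genes of any member.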

How the data were processed

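The deposited values are ratios of liver over reference on a linear scale, and the mean of each array is 1. Liver RNA carried Cy5 and the reference Cy3, per the labels; image analysis, background subtraction and normalization are not given in the sources used here. Some deposited ratios are below 0 (0.251%) or 0 (0.271%), and 42.4% of cells are empty. Positive ratios were taken to log2, with no pseudocount, and centred on each array's median over the tested probes. Signal levels are unknown, so the number of arrays limits the precision. The 2 columns identical to another one were not counted.

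Probes were named through the platform's gene table (14717 of 17280 have an entry, 6 of them with several symbols). A probe entered the tests with values on 70% or more of the arrays and on 3 or more in every group. Weekly group means were modelled with limma 3.58.1 (R 4.3.3), with strain-by-diet level and week as terms; a second fit used 12 levels of strain, diet and phase. Single weeks were tested on single arrays. The p-values were adjusted by Benjamini-Hochberg over all probes tested. Correlations used 100000 two-sided permutations within groups and adjustment over 10 pairs, with scipy 1.17.1. For levels with group differences left in, the permutations ran over all arrays. Nothing says which arrays are separate mice, so single-array p-values measure a spread that may be technical.

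The members and gene lists were chosen with earlier results of these data known. The comparison averaged over both strains, that of changes over time between diets, and 2 alternatives based on array order were added after values were seen. The 4 motifs were chosen in the course of the work. All members are named, with every called pathway gene, otherwise the 2 with the largest diet difference per list and strain, and the 3 genes most alike. Sample numbers shared by the diets were not used to pair arrays in the main fits. Over 169 pairs with the same strain and number, some of them from different weeks, the mean correlation of deviations was 0.00744. It ran from -0.574 to 0.461, and 46 exceeded 0.1. Whether such arrays belong together is not given by the labels and is not settled by these values.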

Additional observations from a re-analysis of the deposited data

Results flagged for a closer look

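In groups of 4 to 10 arrays, 188 sets of values, each of 1 gene in 1 group, were checked for 1 array far from the others. In 22 (11.7%) there was one. The cut-off is met in about 1 in 20 sets only where values are normally distributed. The share over all probes was not counted and the sets share arrays, so this count is a description. The far array was the lowest in 16 sets and the highest in 6. Values are log2 levels, each with the nearest other array of the group.

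For Ehhadh on the high-fat diet the far array stood at 1.23 in A/J at week 1 (nearest 0.48), -2.75 in A/J at week 3 (nearest -0.55), -1.61 in A/J at week 7 (nearest -0.092) and -0.61 in A/J at week 10 (nearest 0.48). For Ehhadh on the low-fat diet it stood at -1.37 in A/J at week 4 (nearest -0.51), -1.27 in A/J at week 5 (nearest -0.25), -1.80 in A/J at week 7 (nearest -0.42), -1.14 in A/J at week 11 (nearest -0.22) and -1.13 in C57 at week 5 (nearest -0.43). For Cyp4a14 on the high-fat diet the far array stood at 0.21 in A/J at week 5 (nearest -1.09). For Hadh on the high-fat diet the far array stood at 1.34 in A/J at week 4 (nearest 0.34), -2.21 in A/J at week 9 (nearest -0.89), -3.21 in C57 at week 6 (nearest -0.64) and -2.48 in C57 at week 9 (nearest -0.21). For Acadvl on the high-fat diet the far array stood at -3.10 in A/J at week 10 (nearest -0.31) and 1.07 in C57 at week 4 (nearest 0.0042). For Acadvl on the low-fat diet it stood at 0.75 in A/J at week 9 (nearest 0.084) and 1.35 in C57 at week 7 (nearest 0.51). For Bdh1 on the high-fat diet the far array stood at -0.16 in A/J at week 4 (nearest 0.23). For Bdh1 on the low-fat diet it stood at -1.96 in A/J at week 10 (nearest -0.35), -1.17 in A/J at week 11 (nearest -0.23) and -0.81 in C57 at week 9 (nearest 0.090).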

How the results depend on the processing

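Of 594 values of single members under an alternative, 555 kept their direction and side of the threshold, 22 changed sign, 7 newly passed and 10 no longer passed; of 60 correlations 47 kept both. Causes were not tested. Ehhadh in C57 passed with single arrays (0.36, limma adjusted p = 0.00373), with consecutive arrays averaged (0.39, 0.00445) and with a replicate block on the sample number (0.40, 0.00433). The labels do not say whether that number pairs arrays. Its mean over both strains passed with quantile normalization (0.31, limma adjusted p = 0.0451), single arrays (0.33, 1.10e-05) and consecutive arrays averaged (0.35, 1.81e-05), and ran from 0.30 to 0.40 with a week left out.

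Signs changed for values near 0. The diet difference in C57 minus that in A/J became -0.0091 (no centring) and -0.00086 (single arrays) for Bdh1, and -0.0014 (no centring) and -0.032 (group medians) for Ehhadh. Cyp4a14 in A/J became -0.085 with group medians. C57 minus A/J became 0.00067 for Ehhadh on the high-fat diet with week 8 and the unlike arrays kept, and -0.014 (unlike arrays kept) and -0.025 (single arrays) for Hadh on the low-fat diet. With a week left out, the diet difference ran from -0.10 to 0.0019 for Acadvl in C57 and from -0.11 to 0.13 for Cyp4a14 in A/J. The difference between strains in it ran from -0.10 to 0.11 for Bdh1 and from -0.0042 to 0.16 for Ehhadh. C57 minus A/J ran from -0.10 to 0.039 for Ehhadh and from -0.0072 to 0.29 for Cyp4a14 on the high-fat diet, and from -0.064 to 0.14 for Hadh on the low-fat diet.

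Correlations changed too. Ehhadh with Hadh fell below the threshold with quantile normalization (0.151) and consecutive arrays averaged (0.196). Hadh with Bdh1 was -0.0293 with no centring, -0.0814 with quantile normalization, -0.0063 without the 2 farthest arrays, -0.0386 within odd or even arrays and -0.149 with consecutive arrays averaged. Ehhadh with Bdh1 was -0.0305 and Cyp4a14 with Hadh -0.0120 with quantile normalization. Acadvl with Bdh1 was 0.0012 within odd or even arrays. With consecutive arrays averaged Ehhadh with Bdh1 was -0.0815, Cyp4a14 with Bdh1 -0.0098 and Hadh with Acadvl 0.0343.

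Counts of called probes also moved. For diet in C57 (15) they were 119 with single arrays, 70 with consecutive arrays averaged, 118 with the replicate block, 2 with week 8 and the unlike arrays kept, and 6 to 19 with a week left out. For diet in A/J (2) they were 11, 11, 5 and 0 under the same settings, 1 with group medians or either other filter, and 0 to 2 with a week left out. For the mean of both strains (32) they were 212 with single arrays, 147 with consecutive arrays averaged, 4 with week 8 kept and 11 to 38 with a week left out. The difference between strains in diet (0) had 1 with single arrays and 1 with consecutive arrays averaged. C57 minus A/J had 803, 662 and 55 on the high-fat diet (301) and 425, 372 and 36 on the low-fat diet (183) with single arrays, consecutive arrays averaged and week 8 kept.

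Between weeks 5 to 7 and weeks 1, 3 and 4, high-fat C57 (1354) had 2279 with quantile normalization, 856 with the 90% filter and 465 to 1290 with a week left out. Low-fat C57 (355) had 557 with no centring, 1502 with quantile normalization and 46 to 246. High-fat A/J (1844) had 700 to 1781, and low-fat A/J (1649) had 1068 with group medians and 374 to 1902. Between weeks 9 to 11 and weeks 1, 3 and 4, high-fat C57 (920) had 315 to 911. Low-fat C57 (248) had 938 with quantile normalization and 20 to 354, and high-fat A/J (1201) had 1824 and 426 to 1424. Low-fat A/J (467) had 265 with no centring, 878 with quantile normalization, 255 with group medians and 37 to 544.

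Not run were the alternatives for members passing at single weeks (none passed), for another probe (each gene has 1), for Hadh and Acadvl with week 8 kept (too few arrays there), and for strain comparisons under the replicate block, which could not be fitted within strain. Missing values, 1 probe per gene and unknown signal limit what these arrays can show.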

Other observations

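Arrays of a group with sample numbers that were both odd or both even were more alike than an odd with an even one in 29 of 36 groups. Their deviations from the group mean had a mean correlation of -0.0802 over 681 pairs, against -0.167 over 852 pairs of an odd with an even number. The pattern was seen after the data were examined, and the labels do not say what odd and even numbers stand for. With odd and even arrays weighted equally, 36 values were recomputed, some of members and some of counts of called probes. Those of members all kept their direction and side of the threshold. Counts have no direction and were only checked for a large change, of which none was found.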
